A study of Mus musculus with 8 samples.

Results

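The nuclear genes of respiratory complexes II to V were compared between the hippocampus of mice given KU55933 and of mice given vehicle. Members were taken by symbol (Sdha to Sdhd, and all symbols beginning with Uqcr, Uqcc, Cox4 to Cox8 or Atp5, without pseudogene symbols), which gave 51 of the 19558 genes listed. Complex II had 4 members, complex III 11, complex IV 18 and complex V 18. They carried 50 symbols, because Atp5o was listed under a second gene ID, called Atp5o copy here. Cox6c2 is among the complex IV members by its symbol, although its single transcript is annotated as a processed pseudogene, and the Uqcc members are assembly factors rather than subunits. Enough reads for testing were found for 49 of them, and Cox8b and Cox7b2 were too low.

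All animals were wild-type mice of the strain given as C57BL/6 KP (the letters KP are not explained), dosed through the nose under anesthesia at postnatal day 40. The treated group (4 libraries) received KU55933, a small molecule that blocks the DNA damage kinase ATM, at a stated 7.5 mg/kg, and the control group (4 libraries) received the carrier alone, which was 4% DMSO in saline. The labels count 4 mice in each group. Every library is labelled hippocampus, while the protocol text on libraries names hypothalamus and PFC as input, a mismatch that was not resolved here. How long after dosing the tissue was taken is not stated in the labels used here.

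The inner mitochondrial membrane carries the respiratory chain. Complex II (succinate dehydrogenase) passes electrons from succinate to ubiquinone, complex III passes them on to cytochrome c, and complex IV (cytochrome c oxidase) passes them to oxygen, while complexes III and IV pump protons. Complex V, the ATP synthase, lets the protons flow back through a rotor ring and makes ATP in its catalytic head. Complex II is coded wholly in the nucleus, whereas complexes III to V join nuclear subunits to partners coded by mitochondrial DNA, and neurons depend heavily on this supply of ATP.

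Library totals were 40586998 to 46630341 estimated counts in vehicle and 34190440 to 37499003 in KU55933. Levels are given as CPM, the count scaled to library size after edgeR's TMM adjustment. Markers of dentate granule cells summed to 415 to 622 CPM in vehicle and 371 to 467 CPM in KU55933 (2 of 6 lower, at an edgeR adjusted p under 0.05), those of CA1 to 237 to 409 CPM and 205 to 290 CPM (2 of 4 lower), and those of CA3 and CA2 to 314 to 366 CPM and 288 to 343 CPM (2 of 6 lower). Median log2 changes (KU55933 minus vehicle) were -0.36 for dentate granule, -0.54 for CA1 and 0.15 for CA3 and CA2 markers. Over all tested genes 14.6% were lower and 6.92% higher. Of 6 general neuronal markers 2 were lower, with sums of 8772 to 9659 CPM in vehicle and 7972 to 9626 CPM in KU55933. Markers of thalamus and subcortical neurons summed to 59.8 to 75.6 CPM in vehicle and 66.5 to 108 CPM in KU55933, with 2 of 6 higher. The part of these differences in the results was not tested. Some libraries stood apart: the 12 choroid plexus markers summed to 1223 and 1286 CPM in KU55933 1 and 2, against 60.7 to 125 CPM in vehicle and 85.2 and 68.8 CPM in KU55933 3 and 4. Oligodendrocyte markers summed to 7852 CPM in vehicle 1 and 3466 to 5554 CPM in vehicle 2 to 4. In KU55933 they summed to 4141 to 5622 CPM. Erythrocyte markers summed to 306 to 547 CPM in vehicle and 200 to 358 CPM in KU55933, with 1 of 5 lower. The part of these sums in the results was not tested either. KU55933 2 was the lowest of the KU55933 libraries for 37 of the 49 tested members. It was also the lowest of them for all 14 members called lower below. KU55933 1 was the highest of them for 5 of the 6 members called higher. The shares over all genes are not given here. Vehicle 3 and 4 exceeded vehicle 1 and 2 by more than 1.2 times on average for 5 members (Cox8a, Cox5b, Cox5a, Cox6c2 and Cox6a1). Results are therefore also given without KU55933 1 and 2, and without vehicle 3 and 4.

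KU55933 hippocampus held less mRNA for 14 members and more for 6, while 29 of the 49 did not pass the test (edgeR's quasi-likelihood test, adjusted p under 0.05). The lower genes stood at 1.22- to 2.82-fold less by group means and the higher ones at 1.19- to 1.26-fold more. The largest fall was in Uqcrq of complex III, followed by Cox6a2 of complex IV and Atp5g2 of complex V. Across all 15481 tested genes 14.6% were lower and 6.92% higher by the same test (21.6% in either direction), and the median log2 change was -0.03 over the members and 0.01 over all genes. The count of lower members was 9 without vehicle 3, 10 without KU55933 1 and 2 (Uqcrq, Uqcr11, Uqcr10, Uqcc2, Cox6a1, Cox6a2, Atp5g2, Atp5d, Atp5e and Atp5g3) and 6 without vehicle 3 and 4 (Uqcrq, Uqcr11, Uqcc2, Cox6a1, Atp5g2 and Atp5d). That of higher members was 0 without vehicle 2, 3 or 4, 2 without KU55933 1, 3 without KU55933 4, 1 without KU55933 1 and 2 and 0 without vehicle 3 and 4. Shares over all genes are not given for these fits. Fewer libraries lower the power for every gene, so calls lost there are not read as particular to the members. DESeq2 called 15 members lower and 9 higher, against 16.7% and 11.9% of all genes, and limma-voom 14 and 4, against 14.3% and 6.33%. In bulk tissue fewer cells of a type and less RNA per cell cannot be told apart.

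By complex, the calls were as follows. In complex II 1 member fell and none rose, and in complex III 6 fell, 4 rose and 1 did not pass. Complex IV had 4 that fell, 1 that rose and 11 of its 16 tested members that did not pass, and complex V had 3 that fell, 1 that rose and 14 that did not pass. The median log2 change was 0.10 in complex II, -0.35 in complex III, -0.07 in complex IV and 0.03 in complex V. In the fit that adjusts for GC content and length, described below, these medians were 0.10, -0.07, -0.06 and 0.04. That fit called 2 members of complex III, 3 of complex IV and 1 of complex V lower and none higher. Over all genes it called 1.29% lower and 0.672% higher. Groups did not overlap for 14 members with lower and 10 with higher values in KU55933, against 15.9% and 10.7% of all tested genes.

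**Figure D1:**
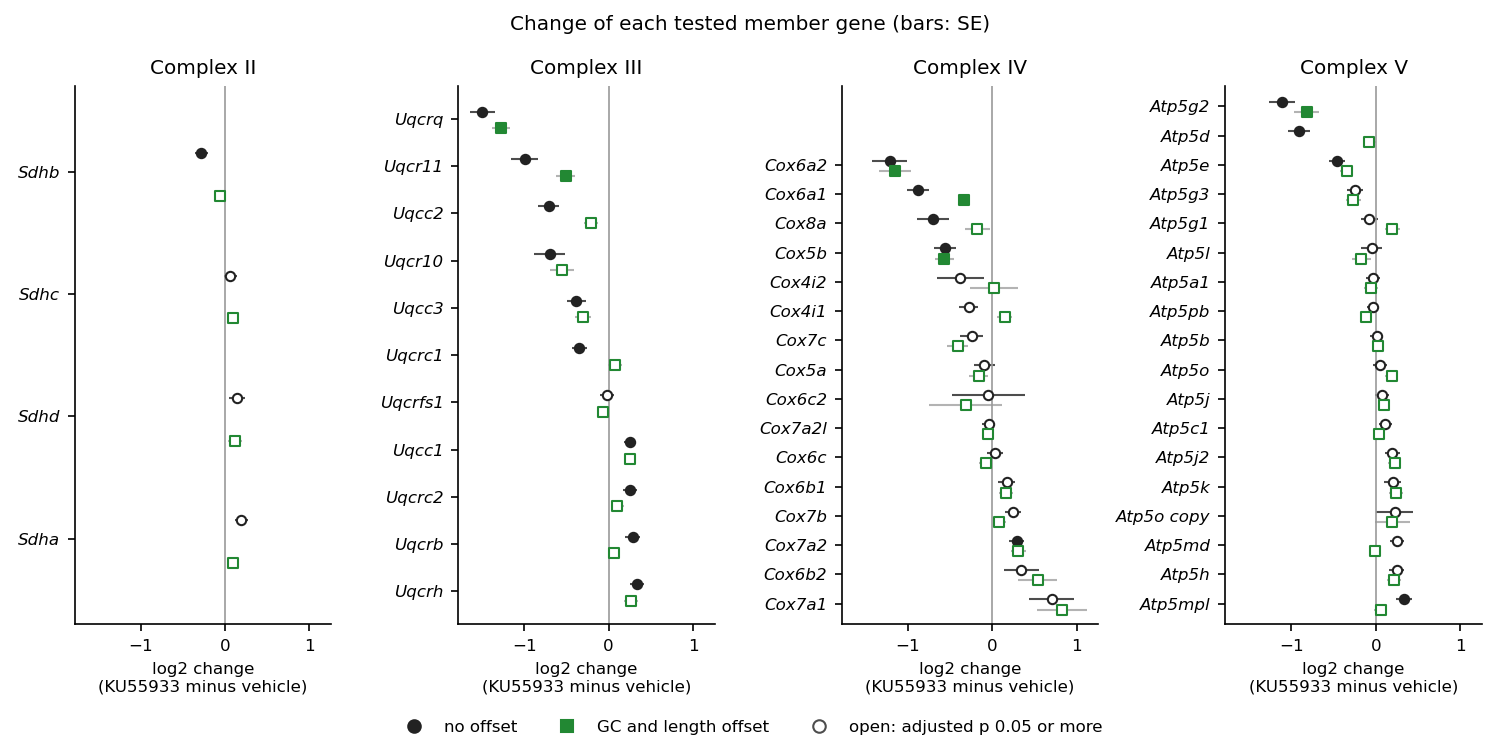
Log2 change (KU55933 minus vehicle, horizontal axis) of each tested member gene, by complex, by the plain fit (circles) and by the fit that adjusts for GC content and length (squares), with SE bars. Filled symbols have an adjusted p under 0.05: 14 lower and 6 higher circles, and 6 lower squares.

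Summed over its nuclear genes in CPM, each complex overlapped between the groups. Nuclear complex II mRNA summed to 601 ± 28.2 CPM in vehicle and 649.5 ± 48.9 CPM in KU55933 (SD, n = 4 in each group), and complex III to 926 ± 24.9 CPM in vehicle and 856 ± 84.3 CPM in KU55933. For complex IV the sums were 1606 ± 96.5 CPM in vehicle and 1393 ± 167 CPM in KU55933, and for complex V 3405 ± 81.3 CPM in vehicle and 3373 ± 312 CPM in KU55933. Between the group means these are ratios of 1.08, 0.92, 0.87 and 0.99. As a percent of all counts, without the TMM adjustment, the complex II sums met at the edge without overlapping, at 0.0568 to 0.0627% in vehicle and 0.0627 to 0.0695% in KU55933. KU55933 2 was the lowest of its group in all 4 CPM sums and KU55933 1 the highest in 3 of them. The sums are descriptions with no test, since the genes were chosen with results of these data known.

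**Figure D2:**
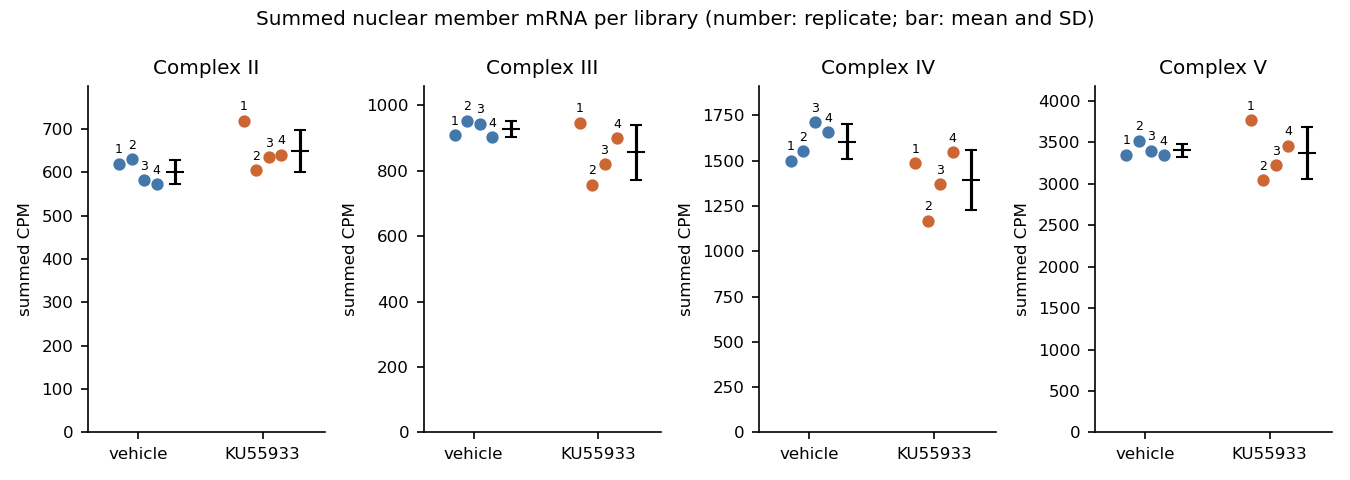
Summed TMM-scaled CPM of the nuclear members of each complex (vertical axis, from 0) in each of the 8 libraries, numbered by replicate, with the mean and SD of each group. The groups overlap in every complex, and complex IV runs from 1169 to 1547 CPM in KU55933 and from 1499.8 to 1712 CPM in vehicle.

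Levels per length set the catalytic beta subunit of the ATP synthase on top. Among vehicle libraries Atp5b, the catalytic beta subunit, stood at 583 ± 13.8 CPM per kb of transcript (SD, n = 4), Cox4i1 at 431 ± 28.5 and Cox8a at 377 ± 109. Cox4i1 and Cox8a did not differ beyond their spread, and neither did Atp5a1, the alpha subunit, at 318 ± 14.7 from Cox6c at 309 ± 5.66 CPM per kb. Of the complex II genes Sdha stood mid-order (26 of 51) at 130.4 ± 7.16 CPM per kb, and Sdhb, Sdhd and Sdhc lay lower (37, 39 and 40 of 51), down to 42.3 ± 2.25 CPM per kb for Sdhc. The last 8 places were taken by Cox6a2, Cox6b2, Atp5o copy, Cox7a1, Cox6c2, Cox4i2, Cox8b and Cox7b2, from 3.01 ± 0.131 down to 0.303 ± 0.207 CPM per kb.

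Before the members are taken in turn, the GC content of their transcripts has to be given, because it moved with the result. The 14 lower members had a transcript GC content of 50.9 to 61.0% (median 55.7%), the 6 higher ones 42.2 to 51.8% (median 47.2%) and those that did not pass 41.8 to 57.5% (median 50.4%). Across the 49 members, which share their libraries, Spearman's rho of GC content with the log2 change was -0.57, as a description. With an offset that takes out each library's trend of counts on GC content and length, rho was -0.11. Once it was applied, 6 members fell (Uqcrq, Cox6a2, Atp5g2, Cox5b, Cox6a1 and Uqcr11) and none rose, at a background of 1.29% lower and 0.672% higher (1.96% in either direction) over all genes. With an offset for GC content alone 3 members fell and none rose, against 1.06% and 0.504% of all genes. Leaving out 1 library in the offset fit gave 1 (without vehicle 3 or KU55933 2) to 5 lower members. By the unadjusted p under 0.05, 12 members were lower and 9 higher in this offset fit. Shares over all genes are not given for that threshold or for the fits with a library left out. These counts are therefore not read as an excess among the members. Whether the GC trend belongs to the libraries or to the treatment cannot be told apart here, so both values are given for the members that passed without the offset. No other member passed with it.

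**Figure D3:**
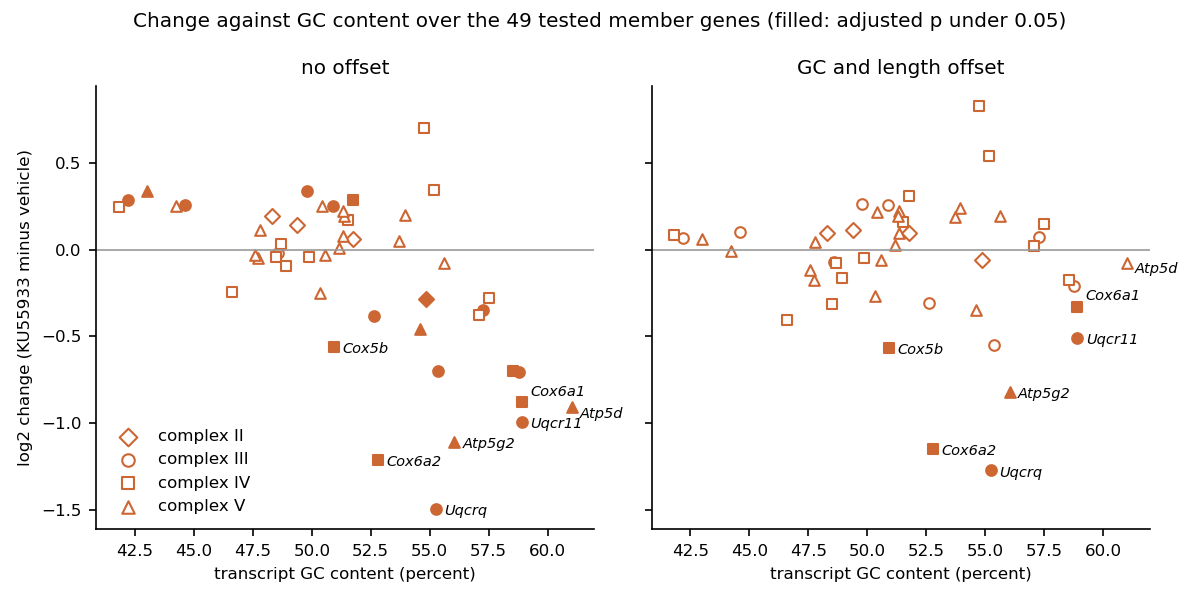
Log2 change (KU55933 minus vehicle, vertical axis) against the mean GC content of the gene's transcripts in percent (horizontal axis) for the 49 tested members, by the plain fit (left) and the adjusted fit (right). Filled symbols have an adjusted p under 0.05. Atp5d, the most GC-rich member, moves from -0.91 to -0.07 with the offset, and Uqcrq from -1.50 to -1.27.

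In complex II the gene of the iron-sulfur subunit fell a little and those of the other subunits did not pass the test. Sdhb, which carries the iron-sulfur clusters, had 81.6, 86.9, 83.6 and 82.8 CPM in vehicle 1 to 4 and 72.1, 59.8, 69.8 and 73.6 CPM in KU55933 1 to 4. Every KU55933 library lay below every vehicle library (log2 change -0.28, SE 0.08, adjusted p = 0.0276), but with the offset the change was -0.06 (SE 0.06, adjusted p = 0.696). The call was also lost without vehicle 2, 3 or 4 or KU55933 3 (adjusted p up to 0.0821). Sdha, the flavoprotein that oxidises succinate, had 388, 381, 354 and 347 CPM in vehicle 1 to 4 and 472, 401, 412 and 395 CPM in KU55933 1 to 4. The groups did not overlap and KU55933 was the higher, but the test was not passed (log2 change 0.19, SE 0.08, adjusted p = 0.0971). Sdhc and Sdhd form the membrane anchor. Sdhc had 75.2, 83.01, 74.98 and 74.4 CPM in vehicle 1 to 4 and 88.97, 74.1, 76.1 and 82.3 CPM in KU55933 1 to 4, and Sdhd had 75.2, 78.6, 69.9 and 67.8 CPM in vehicle 1 to 4 and 86.2, 69.4, 76.7 and 89.5 CPM in KU55933 1 to 4. Both overlapped between the groups, with log2 changes of 0.06 (adjusted p = 0.581) and 0.14 (adjusted p = 0.278).

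Complex III had members that fell and members that rose. Uqcrq, a small subunit that sits beside cytochrome b, had 54.8, 54.97, 65.2 and 61.7 CPM in vehicle 1 to 4 and 20.6, 14.8, 25.8 and 22.7 CPM in KU55933 1 to 4. Every KU55933 library lay below every vehicle library, and KU55933 2 was the lowest. On average it had 59.2 ± 5.17 CPM over the vehicle libraries and 20.98 ± 4.63 CPM over those of KU55933 (SD, n = 4), a 2.82-fold fall (log2 change -1.50, SE 0.15, adjusted p = 0.000504). With the offset the fall was -1.27 (SE 0.11, adjusted p = 0.000871), and it passed in every fit that left out 1 library, with log2 changes of -1.61 to -1.36 without and -1.37 to -1.18 with the offset. It also passed without KU55933 1 and 2 (-1.28) and without vehicle 3 and 4 (-1.39).

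Genes of further small subunits of complex III were lower too. Uqcr11 had 75.1, 77.9, 77.5 and 68.4 CPM in vehicle 1 to 4 and 37.2, 24.9, 42.3 and 45.6 CPM in KU55933 1 to 4. Uqcr10 had 61.1, 63.7, 64.2 and 57.6 CPM in vehicle 1 to 4 and 38.4, 23.6, 38.7 and 51.1 CPM in KU55933 1 to 4. In both genes all KU55933 libraries were below all vehicle libraries, with KU55933 2 lowest and KU55933 4 highest of their group. Uqcr11 fell (log2 change -0.99, SE 0.16, adjusted p = 0.00249) and remained past the threshold with the offset at -0.51 (SE 0.11, adjusted p = 0.0468), though in only 1 of the 8 offset fits that left out a library. Uqcr10 fell (log2 change -0.70, SE 0.19, adjusted p = 0.0296) but was at -0.55 (SE 0.14, adjusted p = 0.0893) with the offset, and its call was lost without vehicle 2, 3 or 4 or KU55933 1 or 3 (adjusted p up to 0.0786).

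The mRNAs for the core proteins of complex III moved in opposite directions when no offset was used. Uqcrc1 had 181, 202, 198 and 183 CPM in vehicle 1 to 4 and 163, 126, 149 and 161 CPM in KU55933 1 to 4, and Uqcrc2 had 175, 182, 171 and 166 CPM in vehicle 1 to 4 and 240.1, 198, 190.1 and 202 CPM in KU55933 1 to 4. Uqcrc1 was lower in all KU55933 libraries (log2 change -0.35, SE 0.09, adjusted p = 0.0208), and Uqcrc2 was higher in all of them (log2 change 0.26, SE 0.08, adjusted p = 0.0464). With the offset Uqcrc1 turned to 0.07 (SE 0.08, adjusted p = 0.691) and Uqcrc2 stood at 0.10 (SE 0.08, adjusted p = 0.541); their GC contents were 57.3% and 44.6%. Leaving out 1 library ended the call of Uqcrc1 without vehicle 2 or 3 (adjusted p up to 0.0681) and that of Uqcrc2 in 6 of 8 fits, all but those without KU55933 3 or 4 (adjusted p up to 0.12). The Rieske iron-sulfur protein gene Uqcrfs1 overlapped between groups, at 89.03 ± 6.19 CPM over the vehicle libraries and 87.9 ± 8.36 CPM over those of KU55933 (SD, n = 4; log2 change -0.02, SE 0.09, adjusted p = 0.895).

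Uqcrh and Uqcrb were the other subunit genes of complex III that rose. Uqcrh, the hinge protein that helps cytochrome c to dock, had 125, 123, 120.04 and 116 CPM in vehicle 1 to 4 and 178, 143, 138 and 152 CPM in KU55933 1 to 4. Uqcrb, known as the ubiquinone-binding subunit, had 54.4, 56.3, 51.3 and 55.9 CPM in vehicle 1 to 4 and 70.3, 63.9, 57.1 and 74.1 CPM in KU55933 1 to 4. All KU55933 libraries were above all vehicle libraries for both, by 0.34 (SE 0.09, adjusted p = 0.0205) and 0.28 (SE 0.09, adjusted p = 0.0405) on the log2 scale. Neither passed with the offset, at 0.27 (SE 0.08, adjusted p = 0.141) and 0.07 (SE 0.07, adjusted p = 0.679). Without vehicle 2, 3 or 4 the Uqcrh call was lost (adjusted p up to 0.0627), and Uqcrb lost it in 6 of the 8 such fits.

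The Uqcc genes code for assembly factors that handle newly made cytochrome b. Uqcc1 had 51.7, 55.05, 50.4 and 51.9 CPM in vehicle 1 to 4 and 68.3, 58.3, 58.6 and 64.3 CPM in KU55933 1 to 4. Uqcc2 had 37.4, 39.5, 38.8 and 37.6 CPM in vehicle 1 to 4 and 23.3, 17.4, 27.7 and 25.4 CPM in KU55933 1 to 4. Uqcc3 had 11.2, 12.3, 11.7 and 11.4 CPM in vehicle 1 to 4 and 9.10, 7.19, 9.23 and 10.2 CPM in KU55933 1 to 4. In none of them did the groups overlap: Uqcc1 was higher in KU55933, and Uqcc2 and Uqcc3 were lower. Uqcc1 rose (log2 change 0.26, SE 0.07, adjusted p = 0.0335), Uqcc2 fell (log2 change -0.71, SE 0.12, adjusted p = 0.00326) and Uqcc3 fell (log2 change -0.38, SE 0.12, adjusted p = 0.0394). With the offset they stood at 0.26 (SE 0.07, adjusted p = 0.0968), -0.21 (SE 0.08, adjusted p = 0.267) and -0.30 (SE 0.09, adjusted p = 0.142). Leaving out 1 library ended the call of Uqcc1 in 5 fits and of Uqcc3 in 6 fits of 8, and of Uqcc2 in none.

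Coding sequences of members that fell, rose or did not pass show how base composition varies among them. The first 120 coding bases of the transcript with the most counts are shown for small subunits that fell (Uqcrq, Uqcr11, Cox6a1), for Uqcrb, which rose, and for Cox7b, which did not pass, with every G and C in capitals. They come from GENCODE mouse release 21 transcripts on GRCm38, from chromosome 11, 10, 5, 13 and X in the order Uqcrq, Uqcr11, Cox6a1, Uqcrb and Cox7b.
Uqcrq: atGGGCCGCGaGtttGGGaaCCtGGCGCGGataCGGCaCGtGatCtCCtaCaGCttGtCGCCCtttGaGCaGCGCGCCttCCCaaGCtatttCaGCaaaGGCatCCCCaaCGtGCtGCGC
Uqcr11: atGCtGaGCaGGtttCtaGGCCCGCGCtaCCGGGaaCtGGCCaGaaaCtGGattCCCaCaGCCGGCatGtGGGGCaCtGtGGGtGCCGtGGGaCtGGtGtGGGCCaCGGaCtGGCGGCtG
Cox6a1: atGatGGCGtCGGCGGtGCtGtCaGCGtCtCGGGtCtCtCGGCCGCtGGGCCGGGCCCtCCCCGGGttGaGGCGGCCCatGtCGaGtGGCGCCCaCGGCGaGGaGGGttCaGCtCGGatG
Uqcrb: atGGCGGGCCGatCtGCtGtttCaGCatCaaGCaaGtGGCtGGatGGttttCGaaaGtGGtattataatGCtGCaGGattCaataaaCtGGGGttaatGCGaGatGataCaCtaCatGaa
Cox7b: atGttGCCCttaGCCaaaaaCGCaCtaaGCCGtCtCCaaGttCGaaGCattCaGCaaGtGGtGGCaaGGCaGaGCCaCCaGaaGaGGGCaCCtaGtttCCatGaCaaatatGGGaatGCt
Of these 120 bases 73, 79 and 87 were G or C in the genes that fell, 53 in Uqcrb and 60 in Cox7b. The whole of this Uqcrq transcript has 50.2% GC, less than its coding opening, and a further coding transcript, ENSMUST00000109021, has 57.8%. The value used for the gene, a mean over its transcripts weighted by abundance, was 55.3%. Over all genes the median transcript GC content was 50.3%. The stretches were chosen after the values were seen, and they describe the sequences without a test.

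**Figure D4:**
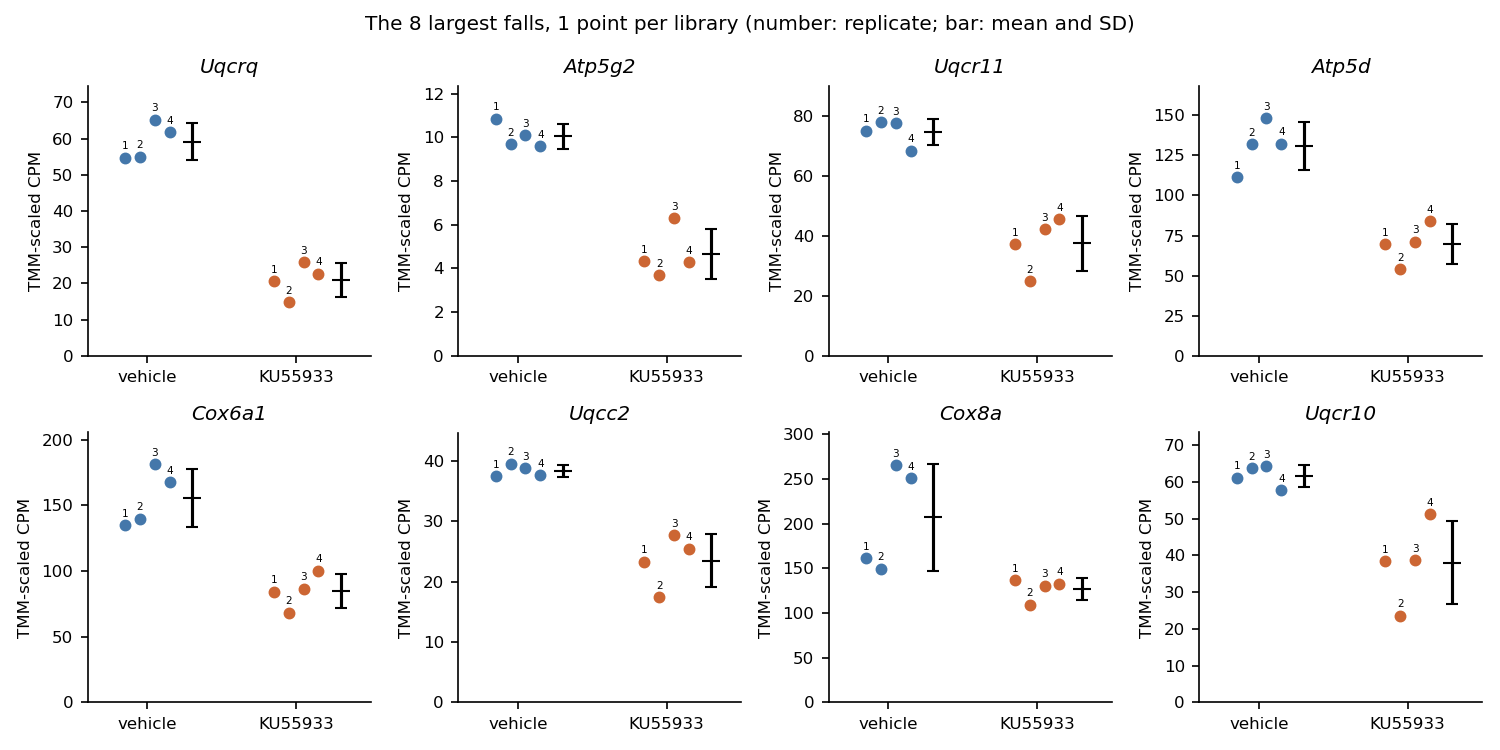
TMM-scaled CPM (vertical axis, from 0) in each library for the 8 largest falls among members averaging 1 log2 CPM or more, numbered by replicate, with the mean and SD. In all 8 panels the KU55933 points lie below the vehicle points, and in Cox8a vehicle 3 and 4 stand above vehicle 1 and 2.

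Among the complex IV genes, the paired isoforms of subunit 6a both fell. Cox6a1, the isoform of most tissues, had 135, 139.9, 181 and 168 CPM in vehicle 1 to 4 and 84.4, 68.4, 86.5 and 100.4 CPM in KU55933 1 to 4. Cox6a2, known as the heart and skeletal muscle isoform, had 2.06, 1.95, 2.16 and 2.01 CPM in vehicle 1 to 4 and 0.790, 0.620, 1.04 and 1.07 CPM in KU55933 1 to 4. The groups did not overlap for either, and vehicle 3 and 4 were the highest for Cox6a1. Cox6a1 fell (log2 change -0.88, SE 0.13, adjusted p = 0.00149) and was at -0.33 (SE 0.07, adjusted p = 0.0468) with the offset, where 2 of the 8 fits that left out a library called it (adjusted p up to 0.141). Cox6a2 fell (log2 change -1.21, SE 0.21, adjusted p = 0.00287) and was at -1.15 (SE 0.19, adjusted p = 0.0149) with the offset, where 6 of the 8 fits that left out a library called it. Markers of skeletal and heart muscle summed to 11.6 to 17.3 CPM in vehicle and 12.5 to 14.1 CPM in KU55933, with Ckm and Actc1 at 0 or not listed, and those of parvalbumin interneurons to 295 to 320.2 CPM and 300.4 to 363 CPM; their part in the Cox6a2 result was not tested.

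Cox8a and Cox5b, which code for a small membrane subunit and for a zinc-binding subunit on the matrix side, fell as well. Cox8a had 161, 149.7, 265 and 251 CPM in vehicle 1 to 4 and 136, 109, 130.4 and 133 CPM in KU55933 1 to 4. Cox5b had 107, 109.99, 154 and 154 CPM in vehicle 1 to 4 and 92.9, 78.96, 92.5 and 90.3 CPM in KU55933 1 to 4. In both, vehicle 3 and 4 were far above vehicle 1 and 2, and the lowest vehicle library was still above the highest KU55933 library. Cox8a fell (log2 change -0.70, SE 0.19, adjusted p = 0.0287), but was at -0.17 (SE 0.15, adjusted p = 0.607) with the offset and lost its call without vehicle 3, vehicle 4, KU55933 2 or KU55933 3 (adjusted p up to 0.0736). Cox5b fell (log2 change -0.56, SE 0.13, adjusted p = 0.0144) and was at -0.57 (SE 0.11, adjusted p = 0.0373) with the offset, where 2 of the 8 fits that left out a library called it (adjusted p up to 0.123). Neither passed once vehicle 3 and 4 were left out together.

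The isoform pairs of the other complex IV subunits were dominated by the general form. Cox4i1 had 320.5, 343, 320.3 and 291 CPM in vehicle 1 to 4 and 274, 206, 268 and 304 CPM in KU55933 1 to 4, and Cox4i2, known from lung and from low oxygen, had 0.658, 1.14, 0.608 and 0.942 CPM in vehicle 1 to 4 and 0.497, 0.733, 0.745 and 0.592 CPM in KU55933 1 to 4. Both overlapped between groups and did not pass (-0.28, adjusted p = 0.0910, and -0.38, adjusted p = 0.346), though without KU55933 4 Cox4i1 was lower (-0.35, adjusted p = 0.0393). Cox6b1 had 144, 151, 138 and 136 CPM in vehicle 1 to 4 and 168, 133, 152 and 189.7 CPM in KU55933 1 to 4, and its testis isoform Cox6b2 had 1.18, 1.34, 1.31 and 0.967 CPM in vehicle 1 to 4 and 1.78, 1.63, 1.12 and 1.58 CPM in KU55933 1 to 4. These too overlapped, with log2 changes of 0.17 (adjusted p = 0.235) and 0.35 (adjusted p = 0.248). Cox8b, which pairs with Cox8a in muscle, had 0.439, 0.124, 0.170 and 0.174 CPM in vehicle 1 to 4 and 0.614, 0.535, 0.239 and 0.113 CPM in KU55933 1 to 4 and was not tested.

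Within the Cox7a family the general isoform rose. Cox7a2 had 94.7, 93.2, 90.7 and 92.8 CPM in vehicle 1 to 4 and 135, 97.6, 109 and 112 CPM in KU55933 1 to 4. Cox7a1, the heart and muscle form, had 0.636, 0.544, 0.510 and 0.570 CPM in vehicle 1 to 4 and 1.26, 1.04, 0.639 and 0.761 CPM in KU55933 1 to 4. Cox7a2l had 118, 133, 119.8 and 122 CPM in vehicle 1 to 4 and 132, 107, 117 and 123 CPM in KU55933 1 to 4. The groups did not overlap for Cox7a2 and Cox7a1, with KU55933 higher, and they overlapped for Cox7a2l. Cox7a2 rose (log2 change 0.29, SE 0.09, adjusted p = 0.0476), with the offset at 0.31 (SE 0.09, adjusted p = 0.106), and lost its call in 7 of 8 fits without 1 library. Cox7a1 did not pass (log2 change 0.70, SE 0.27, adjusted p = 0.0792), nor did Cox7a2l (log2 change -0.04, SE 0.08, adjusted p = 0.734).

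As a share of the family's counts, Cox7a2l took 56.8% ± 1.39 in vehicle and 51.2% ± 1.31 in KU55933 (SD, n = 4). It was lower in 4 of 4 KU55933 libraries (two-sided exact permutation test, p = 0.0286, which is the floor for 4 against 4). Over the 9 isoform shares computed the adjusted p was 0.129 for this share and for that of Atp5g2 in the c-ring genes, and neither passed. Both were at the floor, and a single share at the floor cannot pass after adjustment over 9. Their failure to pass is therefore not read as a lack of change. Among the remaining tested complex IV members, Cox5a, Cox6c, Cox6c2, Cox7b and Cox7c did not pass, with log2 changes from -0.24 for Cox7c to 0.25 for Cox7b. Without KU55933 2 Cox7b was higher (adjusted p = 0.0302), and without KU55933 4 Cox7c was lower (adjusted p = 0.0426).

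In complex V, genes for small parts of the rotor fell while those of the catalytic subunits did not pass. Atp5d, the delta subunit of the central stalk, had 111, 132, 148 and 132 CPM in vehicle 1 to 4 and 69.5, 54.2, 71.3 and 84.1 CPM in KU55933 1 to 4. Atp5e, the epsilon subunit beside it, had 54.8, 58.6, 59.2 and 57.4 CPM in vehicle 1 to 4 and 46.7, 35.3, 44.4 and 41.01 CPM in KU55933 1 to 4. The groups did not overlap in either gene. Atp5d fell (log2 change -0.91, SE 0.13, adjusted p = 0.00129), and with the offset the change was -0.07 (SE 0.07, adjusted p = 0.665). Atp5e fell (log2 change -0.46, SE 0.09, adjusted p = 0.00576), and with the offset stood at -0.35 (SE 0.08, adjusted p = 0.0553). The call of each held in all 8 fits without 1 library, when no offset was used.

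The rotor ring is built of c subunits from 3 genes, whose mature protein is the same. Atp5g1 had 140.1, 149.8, 122 and 126 CPM in vehicle 1 to 4 and 133, 108, 124 and 146 CPM in KU55933 1 to 4. Atp5g2 had 10.9, 9.69, 10.1 and 9.59 CPM in vehicle 1 to 4 and 4.33, 3.69, 6.31 and 4.29 CPM in KU55933 1 to 4. Atp5g3 had 152, 167, 177 and 174 CPM in vehicle 1 to 4 and 167, 134, 129 and 134 CPM in KU55933 1 to 4. Only for Atp5g2, the lowest of them in CPM and in CPM per kb, did the groups not overlap. Atp5g2 fell (log2 change -1.11, SE 0.16, adjusted p = 0.00113) and was at -0.82 (SE 0.15, adjusted p = 0.0245) with the offset, where 2 of the 8 fits without 1 library called it. Atp5g1 (log2 change -0.08, SE 0.10, adjusted p = 0.612) and Atp5g3 (log2 change -0.25, SE 0.09, adjusted p = 0.0761) did not pass, and without KU55933 1 Atp5g3 did (-0.34, adjusted p = 0.0133). Atp5g2 took 3.23% ± 0.263 of the c-ring counts in vehicle and 1.72% ± 0.478 in KU55933 (SD, n = 4; exact permutation p = 0.0286, adjusted p = 0.129).

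The catalytic head and the stator did not pass as genes. Atp5b stood at 1007 ± 23.9 CPM over the vehicle libraries and 1016 ± 90.8 CPM over those of KU55933 and Atp5a1 at 776 ± 35.9 CPM over the vehicle libraries and 758 ± 70.8 CPM over those of KU55933 (SD, n = 4), with log2 changes of 0.01 (SE 0.08, adjusted p = 0.923) and -0.03 (SE 0.08, adjusted p = 0.793). The gamma subunit gene Atp5c1 and the stator genes Atp5o (oligomycin sensitivity), Atp5h (subunit d), Atp5j (coupling factor) and Atp5pb (subunit b) had log2 changes from -0.03 for Atp5pb to 0.25 for Atp5h. Atp5mpl, a small subunit of the membrane part, was the complex V gene that rose, with 46.4, 46.5, 44.8 and 47.96 CPM in vehicle 1 to 4 and 69.3, 53.4, 51.8 and 60.01 CPM in KU55933 1 to 4. All KU55933 libraries were higher (log2 change 0.34, SE 0.09, adjusted p = 0.0285), and the offset took the change to 0.06 (SE 0.08, adjusted p = 0.729). Without vehicle 2, 3 or 4 the call was lost (adjusted p up to 0.0877). Other membrane subunits (Atp5md, Atp5k, Atp5l, Atp5j2) did not pass, between -0.05 for Atp5l and 0.25 for Atp5md. Without KU55933 2, Atp5md (0.29, adjusted p = 0.0428), Atp5k (0.29, adjusted p = 0.0272) and Atp5j2 (0.26, adjusted p = 0.0475) were higher, and Atp5md also without KU55933 3 (adjusted p = 0.0490), over protein-coding transcripts alone (adjusted p = 0.0370) and with the replicate block (adjusted p = 0.0439). Atp5o copy, which could share reads with Atp5o, was at 0.768, 1.01, 0.802 and 0.892 CPM in vehicle 1 to 4 and overlapped between groups. The ATPase inhibitor gene Atpif1, outside the symbol rule, had 71.5, 81.5, 78.4 and 74.95 CPM in vehicle 1 to 4 and 65.2, 51.8, 61.5 and 74.6 CPM in KU55933 1 to 4. Its groups overlapped and it did not pass (log2 change -0.28, SE 0.10, adjusted p = 0.0772).

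Below the gene level, Atp5pb showed opposite changes of its transcripts, and it was singled out after its values were seen. Subunit b is the stalk of the stator that holds the catalytic head still. Its protein-coding transcript ENSMUST00000118209 had 171, 183, 171 and 176 CPM in vehicle 1 to 4 and 85.95, 57.01, 89.2 and 69.05 CPM in KU55933 1 to 4. A transcript annotated as a target of nonsense-mediated decay, ENSMUST00000133320, had 35.8, 33.5, 27.1 and 31.1 CPM in vehicle 1 to 4 and 140.3, 124, 98.6 and 129 CPM in KU55933 1 to 4. In each vehicle library the coding transcript was the larger, and in each KU55933 library the other one was. The coding transcript fell (log2 change -1.22, SE 0.14, adjusted p = 0.00368, over all 45343 transcripts tested) and the other rose (log2 change 1.95, SE 0.13, adjusted p = 0.000778). With an offset fitted per transcript the changes were -1.17 (SE 0.16, adjusted p = 0.0131) and 1.90 (SE 0.17, adjusted p = 0.00247). Both calls held in all 8 fits without 1 library, at -1.31 to -1.01 and 1.88 to 2.04.

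Summed over its transcripts, the gene was at 207 ± 7.02 CPM over the vehicle libraries and 203 ± 18.2 CPM over those of KU55933 (SD, n = 4). Of its counts, protein-coding transcripts took 83.6% ± 1.38 in vehicle and 37.7% ± 6.91 in KU55933 (SD, n = 4). Counted over protein-coding transcripts alone the gene fell by 1.18 on the log2 scale (adjusted p = 0.000478). The pseudogene Atp5pb-ps stayed under 1 CPM in every library.

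The ENSMUST00000133320 transcript holds an exon of 167 bases at chr3:105957870-105958036 on the minus strand (GRCm38, GENCODE mouse release 21; the authors' build, GRCm39, differs). The coding part of that exon, chr3:105957934-105958036, is shown because it brings in the stop codon, in capitals, after 100 bases.
Atp5pb extra exon: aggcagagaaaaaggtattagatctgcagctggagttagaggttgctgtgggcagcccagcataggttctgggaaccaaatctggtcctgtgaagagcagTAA
The coding transcript lacks this exon and has its own leader of 456 bases with 58.1% GC, against 47.9% for the exon. Over their whole length the transcripts have 49.1% and 45.9% GC. Salmon shares reads among transcripts by a model, and the part of that sharing in this result was not tested.

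Across all members 166 transcripts were tested, of which 16 fell and 5 rose, at a background of 5.70% lower and 1.06% higher over all transcripts. With the offset per transcript 3 fell and 5 rose, against 1.01% and 1.05%. The 3 were the coding transcripts ENSMUST00000061326 and ENSMUST00000109021 of Uqcrq and ENSMUST00000118209 of Atp5pb. The larger Uqcrq transcript, ENSMUST00000061326, had 36.2, 36.7, 40.9 and 38.05 CPM in vehicle 1 to 4 and 10.3, 6.30, 11.4 and 11.01 CPM in KU55933 1 to 4. The groups did not overlap (log2 change -1.96, SE 0.18, adjusted p = 0.00202). With the offset the change was -1.89 (SE 0.20, adjusted p = 0.00419).

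The share of a gene's counts on protein-coding transcripts was lower in KU55933 without overlap for 6 of 48 members and higher for 1, Atp5k, against 3.53% and 2.47% of all genes. Beside Atp5pb these were Cox5b, Uqcrq, Atp5j, Cox6b1 and Cox8a. For Cox5b the share was 81.9% ± 9.81 in vehicle and 56.2% ± 1.71 in KU55933, and for Uqcrq 92.4% ± 1.046 in vehicle and 79.4% ± 3.31 in KU55933 (SD, n = 4). In Cox5b vehicle 3 and 4 were at 91.8% and 88.2% and vehicle 1 and 2 at 76.9% and 70.8%, and all were above the KU55933 libraries. For Atp5j it was 85.2% ± 1.54 in vehicle and 73.8% ± 6.95 in KU55933, for Cox6b1 88.8% ± 2.48 in vehicle and 80.3% ± 3.22 in KU55933 and for Cox8a 99.2% ± 0.319 in vehicle and 96.7% ± 0.719 in KU55933. In Atp5j the transcript that rose was the retained-intron transcript ENSMUST00000146103, with 7.97, 11.3, 8.04 and 7.81 CPM in vehicle 1 to 4 and 17.8, 26.1, 21.01 and 28.5 CPM in KU55933 1 to 4. The groups did not overlap (log2 change 1.41, SE 0.19, adjusted p = 0.00588). In Cox6b1 it was the retained-intron transcript ENSMUST00000207851 (log2 change 0.97, SE 0.17, adjusted p = 0.0141) and in Cox8a the decay target ENSMUST00000237087 (log2 change 1.36, SE 0.24, adjusted p = 0.0135). The remaining rise was in Uqcrc1, whose coding transcript ENSMUST00000194047 had 0.205, 0.102, 0 and 0 CPM in vehicle 1 to 4 and 7.78, 6.91, 1.98 and 1.09 CPM in KU55933 1 to 4; no fold is given, since 2 vehicle libraries were at 0. That call was made in 3 of the 8 fits without 1 library (adjusted p up to 0.0674), and those of the Cox6b1 and Cox8a transcripts in 7.

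**Figure D5:**
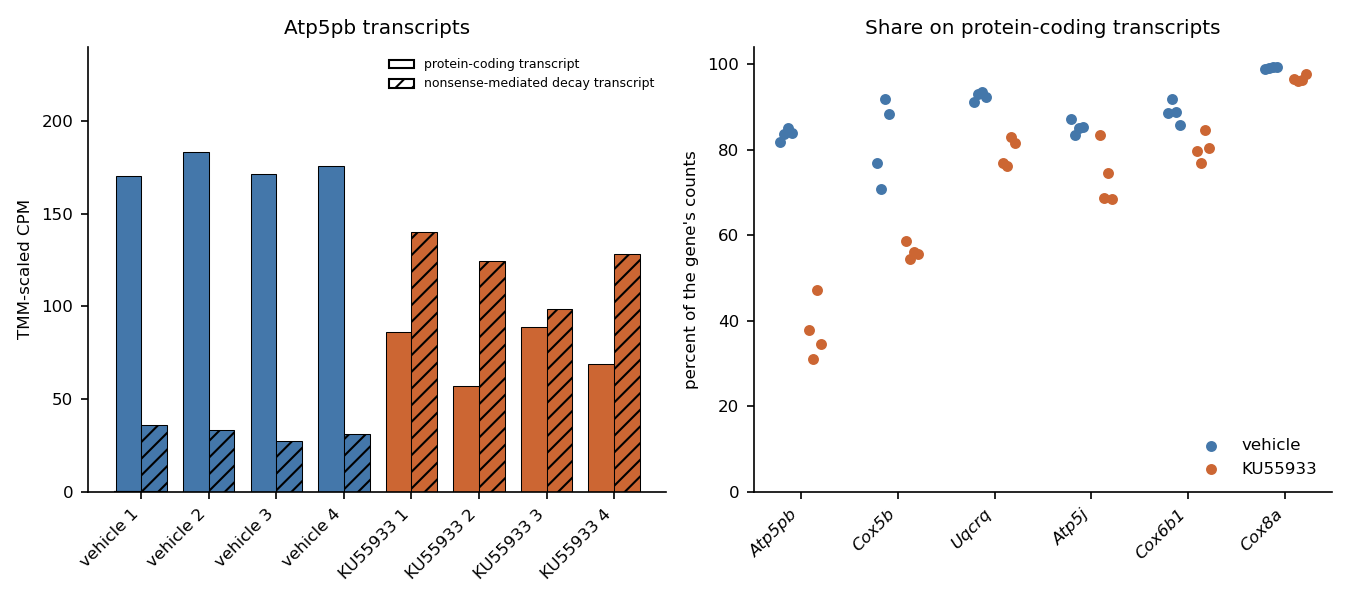
Left, TMM-scaled CPM (vertical axis) of the protein-coding and the nonsense-mediated decay transcript of Atp5pb in each library. Right, percent of each gene's counts on protein-coding transcripts in each library, for the 6 members whose groups did not overlap and were lower in KU55933. The Atp5pb share is 81.8 to 85.1% in vehicle and 31.1 to 47.2% in KU55933.

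Genes that build or join these complexes were counted in lists. Of 44 tested assembly factors and partners 6 fell (13.6%) and 2 rose (4.55%), against 14.6% and 6.92% of all genes, with a median log2 change of 0.04. With the offset 3 fell and none rose. Cox17, which carries copper to cytochrome c oxidase, had 33.2, 31.9, 36.97 and 37.03 CPM in vehicle 1 to 4 and 17.6, 19.9, 22.9 and 25.1 CPM in KU55933 1 to 4. All KU55933 libraries were lower (log2 change -0.70, SE 0.11, adjusted p = 0.00220), and the offset left -0.80 (adjusted p = 0.00535). Sco2, a further copper handler of complex IV, also fell (log2 change -0.75, SE 0.13, adjusted p = 0.00343), as did the complex IV assembly gene Cox14 (log2 change -0.59, SE 0.11, adjusted p = 0.00529) and Fmc1, which in yeast assembles the ATP synthase head (log2 change -0.80, SE 0.18, adjusted p = 0.0111). With the offset these stood at -0.09 (adjusted p = 0.676), -0.38 (adjusted p = 0.0340) and -0.62 (adjusted p = 0.0480). Sdhaf2, which helps to attach flavin to Sdha, rose (log2 change 0.26, SE 0.08, adjusted p = 0.0390), and so did Ttc19, a complex III factor (log2 change 0.22, SE 0.07, adjusted p = 0.0388). With the offset neither passed, at 0.15 (adjusted p = 0.351) and 0.06 (adjusted p = 0.597).

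Of 24 regulators of respiratory genes 5 fell (20.8%) and 3 rose (12.5%), and with the offset 1 fell and none rose. Polrmt, the mitochondrial RNA polymerase, had 24.6, 25.5, 26.1 and 25.7 CPM in vehicle 1 to 4 and 11.2, 10.99, 14.8 and 13.5 CPM in KU55933 1 to 4. Esrra, the nuclear receptor ERR alpha, had 39.7, 40.8, 46.3 and 43.5 CPM in vehicle 1 to 4 and 17.3, 18.6, 24.9 and 25.4 CPM in KU55933 1 to 4. All KU55933 libraries were lower for both (Polrmt log2 change -1.01, SE 0.11, adjusted p = 0.000504; Esrra log2 change -0.98, SE 0.13, adjusted p = 0.000792). With the offset Polrmt stood at -0.36 (adjusted p = 0.0416) and Esrra at -0.21 (adjusted p = 0.220). Ppargc1b, a coactivator of ERR alpha, fell (log2 change -0.78, SE 0.14, adjusted p = 0.00382), and so did Chchd2 (log2 change -0.57, SE 0.14, adjusted p = 0.0158), which in vehicle 3 and 4 stood above vehicle 1 and 2 as Cox5b and Cox8a did. With the offset neither passed, at -0.36 (adjusted p = 0.162) and -0.42 (adjusted p = 0.101).

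Of the 6 mitochondrially encoded partners of complexes III to V none fell and mt-Co1 rose (log2 change 0.26, SE 0.08, adjusted p = 0.0427), with the offset at 0.09 (adjusted p = 0.697). Summed they stood at 28567 to 31609 CPM in vehicle and 32518 to 36555 CPM in KU55933, so that the groups did not overlap. This sum was not adjusted for GC content or length, and the median GC content of the 6 genes was 38.7%. Their median log2 change was 0.21 without and -0.06 with the offset. Taken as single genes, 2 of the 6 had groups that did not overlap, with KU55933 higher. In the tricarboxylic acid cycle 1 of 13 genes fell (Mdh2, log2 change -0.29, SE 0.09, adjusted p = 0.0384) and 2 rose (Dld, log2 change 0.28, SE 0.08, adjusted p = 0.0271, and Sucla2, log2 change 0.25, SE 0.08, adjusted p = 0.0398), shares of 7.69% and 15.4%. None of the 3 passed with the offset, at -0.04 (adjusted p = 0.828), 0.08 (adjusted p = 0.650) and 0.08 (adjusted p = 0.633). Nuclear complex I had 13 lower and 1 higher of 47 tested (27.7% and 2.13%), the mitochondrial ribosome 21 and 5 of 78 (26.9% and 6.41%), and the cytosolic ribosome 32 and 9 of 95 (33.7% and 9.47%). Set beside these, the 14 lower and 6 higher of 49 members (28.6% and 12.2%) are given as counts, with no test between the lists. Of the pseudogenes left out by the rule none of 4 tested passed.

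RefSeq promoter windows (GRCm38.p6, 250 bases before to 50 after the start) were matched for 39 members. The NRF1 motif GCATGCGC was found on either strand for 7 members (17.9%, against 3.05% of 27025 genes) and the ETS core of GABP, CCGGAAG, for 13 (33.3% against 9.93%). The YY1 motif AAGATGGC was found for 4 (10.3% against 3.19%), the ERR core AAGGTCA for 6 (15.4% against 5.38%) and the cyclic AMP response element TGACGTCA for 1 (2.56% against 2.03%). Of the members with the NRF1 motif 5 were among the 12 matched lower genes and none among the 3 matched higher genes, and with the GABP core 5 and 1. Atp5k and Atp5l, which did not pass, also held the NRF1 motif, and other members that did not pass held the GABP core. Both motifs are rich in G and C, and the lower members had the higher transcript GC content (median 55.7% against 47.2% in the higher ones). Its part in these counts was not tested. The 27025 genes are those of the promoter reference, not the genes tested here. No entry was matched for Atp5a1, Atp5mpl, Cox4i1, Cox4i2, Cox6a2, Cox6c, Cox6c2, Sdhc, Uqcrb, Uqcrc2 and Uqcrq.

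The windows of Uqcr11 (chr10:80406772-80407071) and Cox6a1 (chr5:115348909-115349208), which fell, and of Uqcrh (chr4:116075021-116075320), which rose, are shown for comparison, all on the minus strand, with matches to the NRF1 and GABP letters in capitals. In Cox6a1 the NRF1 letters match on both strands and overlap.
Uqcr11: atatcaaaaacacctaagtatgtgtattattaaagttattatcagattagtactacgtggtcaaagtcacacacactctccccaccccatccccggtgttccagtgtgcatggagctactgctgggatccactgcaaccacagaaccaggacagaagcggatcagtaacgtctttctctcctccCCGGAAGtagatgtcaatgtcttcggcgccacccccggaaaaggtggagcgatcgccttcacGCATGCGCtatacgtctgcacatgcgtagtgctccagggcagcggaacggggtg
Cox6a1: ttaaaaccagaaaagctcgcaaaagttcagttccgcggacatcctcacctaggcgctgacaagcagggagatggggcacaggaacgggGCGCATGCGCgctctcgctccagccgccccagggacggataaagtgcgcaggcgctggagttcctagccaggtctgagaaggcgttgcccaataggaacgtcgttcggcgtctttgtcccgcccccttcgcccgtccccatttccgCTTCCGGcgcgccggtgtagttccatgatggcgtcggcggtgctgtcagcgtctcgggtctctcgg
Uqcrh: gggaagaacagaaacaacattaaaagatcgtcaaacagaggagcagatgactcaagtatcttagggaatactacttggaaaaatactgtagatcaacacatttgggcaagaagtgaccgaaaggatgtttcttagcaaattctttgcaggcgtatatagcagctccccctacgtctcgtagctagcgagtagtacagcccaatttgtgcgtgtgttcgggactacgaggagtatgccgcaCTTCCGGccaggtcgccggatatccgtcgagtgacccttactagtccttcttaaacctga
A match is a description of the letters and not a binding site. The windows hold 52.00%, 63.00% and 46.7% GC.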

How the data were processed

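Polyadenylated RNA of 8 hippocampus samples was sequenced with stranded TruSeq libraries, per the labels. Values in the deposited table are expected counts for each transcript, estimated by the authors with Salmon 1.4.0; FastQC 0.11.9, DESeq2 1.32.0 and build GRCm39 are also named in the submitters' processing notes. No source used here says how the values became whole numbers. GC content and length came from GENCODE mouse release 21, which matched 99.7% of transcripts.

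Counts were summed per gene ID and tested with edgeR 4.0.16 (quasi-likelihood F test, two-sided, robust; filterByExpr, TMM; limma 3.58.1, R 4.3.3), adjusted by Benjamini-Hochberg over all 15481 genes, with a threshold of 0.05. The offset used natural splines per library, 6 degrees of freedom on GC content and 5 on log length. The same test was run on transcripts. Library totals of 34190440 to 46630341 set the precision, which in genes under 1 CPM is low. The p-values measure the spread between the samples, which the labels count as mice. Fits were tested on simulated data. Alternatives were other scalings and filters, DESeq2 1.42.0, limma-voom, a replicate block, protein-coding transcripts only and libraries left out; the offset per transcript and leaving out vehicle 3 and 4 were added after seeing the data.

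The members, lists and alternatives were chosen with earlier results of these data known. Library values are given for the Sdh and Uqcc genes, Atpif1, isoform families, the 8 largest falls and all rises among called members without overlap, and called members with the offset; of other lists up to 4 called genes with the smallest p are described with values. Tables and plots used matplotlib 3.10.9, NumPy 2.4.6, pandas 2.3.3 and Python 3.11.15.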

Additional observations from a re-analysis of the deposited data

Results flagged for a closer look

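In 6 of 108 groups of 4 libraries, 1 library stood far from the other 3, a share that chance alone gives in about 1 in 20 groups. Vehicle 2 was the high library for Sdhc (83.0 CPM, the others 74.4 to 75.2), Atp5o (133 CPM, the others 119.9 to 122), Atp5c1 (160.5 CPM, the others 153.5 to 153.9) and Atp5h (152 CPM, the others 136 to 138). KU55933 1 was the high library for Atp5g3 (167 CPM, the others 129 to 134) and Atp5c1 (193 CPM, the others 159 to 161). None of these 5 genes passed the test between groups.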

How the results depend on the processing

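The count of 14 lower members stayed within 14 to 16 under RLE and upper-quartile scaling, both filters, non-robust dispersion, DESeq2, limma-voom, protein-coding transcripts only and an adjusted p of 0.1. It was 3 with an offset for GC content alone (Uqcrq, Cox6a2, Atp5g2), 6 with the offset for GC content and length, and 6 without vehicle 3 and 4. Without KU55933 1 and 2 it was 10. Leaving out 1 library gave 9 to 16, the 9 without vehicle 3, and with the offset 1 to 5, the 1 without vehicle 3 or KU55933 2. With the offset and without vehicle 3 and 4, 1 member (Uqcrq) was lower. The count of 6 higher members was 3 with no filter, 0 with either offset, 1 without KU55933 1 and 2, 0 without vehicle 3 and 4, 11 at an adjusted p of 0.1 and 0 to 8 without 1 library, the 0 without vehicle 2, 3 or 4; with the offset it was 0 in each such fit. DESeq2 called 9 higher and limma-voom 4. For the fits with libraries left out no share over all genes is given, so lost calls are not read as particular to the members.

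The deviations of same-numbered libraries had correlations of 0.294, 0.084, 0.039 and 0.202. Those of differently numbered libraries ran from -0.221 to 0.115. Whether same-numbered libraries were paired was not tested. With the replicate number as a block 14 members were lower and 7 higher, and with the block and the offset 6 and 2 (Uqcc1 and Cox7a2).

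The log2 change of Uqcrc1 reversed to 0.0530 with the GC offset, 0.0739 with the GC and length offset, 0.0684 with the replicate block added, 0.0479 to 0.106 in 7 of the 8 offset fits with 1 library left out (0.0850, 0.0970, 0.0699, 0.0978 and 0.101 between them; without KU55933 1 it was -0.0116) and 0.0245 without vehicle 3 and 4. With the offset and without vehicle 3 and 4 the log2 change of Uqcrb was -0.00252, that of Cox8a 0.11 and that of Atp5mpl -0.0127. The log2 change of Atp5mpl was -0.0349 with the offset and without KU55933 1. The cause was not tested. Member transcripts that fell numbered 12 with no filter and 3 with the offset per transcript. The isoform shares say nothing of stability, since with 1 library left out the smallest exact p is 0.0571. Neither RLE or upper-quartile scaling nor the percent of all counts moved the ratio of a complex's sums by more than the spread. The sums were compared over these scalings only, and not with the offset or with libraries left out.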
